A study of Mus musculus with 6 samples.

Results

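The p53 target genes are genes whose transcription p53 is known to raise. A list of 33 of them was followed in mammary epithelial cells (MECs) that lack p53, in pools from mice once exposed to tamoxifen and in control pools. A member was measured where the array held a probeset annotated with its symbol alone, which was the case for 29 of the 33 members, among 17418 genes on the array measured in the same way. Each of these 29 members had 1 such probeset. Bax, Gdf15, Ei24 and Rrm2b had none and are not analysed here, and the transcript of p53 itself is not analysed here either. The tamoxifen group held 3 pools of p53 null MECs from Balb/c mice that had carried a 5 mg tamoxifen pellet under the skin for 13 weeks, collected 4 weeks after its removal. The labels also allow 8 weeks, and the earlier time is taken from the account of the arrays in the paper's results text. The control group held 3 pools from mice given a sham pellet. Mice of both groups were injected with 100 µg of estradiol (E2) and collected 8 h later, so the control pools were E2 treated too. In both groups the epithelium came from pieces of duct of p53 null females aged 8 weeks, placed in fat pads of Balb/c wild-type hosts that were cleared at 3 weeks of age. The host age at pellet implantation is 16 weeks in the paper and 8 weeks in the sample labels, and a pool held 5 mice, or 3 to 5 by another label. The fat pad, vessels and blood cells of these glands came from the host, which was p53 wild-type. The cells were released with collagenase and hyaluronidase, and the sources used here describe no sort. A pool of MECs could thus hold host cells with p53, and the series holds no p53 wild-type epithelium to set these levels against.

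In cells with p53, the protein is kept scarce by Mdm2 and Mdm4 and accumulates after DNA damage or other stress. It then binds a DNA site made of a pair of adjacent decamers and raises genes that stop the cell cycle, repair DNA, lower metabolic stress or start apoptosis, with Mdm2 among them as negative feedback. Many of these genes also have inducers other than p53, so their transcripts can be present in cells without it.

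The sites that p53 reads were looked for in the promoter windows of RefSeq (mouse GRCm38.p6), which run from 250 bases before to 50 bases after an annotated transcription start. The table gave windows for 25 of the 33 members. A match to the p53 consensus decamer, which reads the same on both strands, was found in 11 of 34 member windows (32.4%) and in 8.36% of all 32851 windows. A 20-base site of 2 adjacent decamers with at most 2 mismatches was found in 4 of the 34 (11.8%), against 0.798% of all windows. The members of the list were chosen as p53 targets, so this difference describes the list and is no result of the arrays. The 4 members with a 20-base site are shown because they are a cell cycle inhibitor, a cyclin, a p53 relative and a spindle protein whose array values went different ways. Capitals mark the 20 bases.
Cdkn1a, chr17:29090908-29090967, plus strand: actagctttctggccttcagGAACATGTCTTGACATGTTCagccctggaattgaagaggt
Ccng1, chr11:40755442-40755501, minus strand: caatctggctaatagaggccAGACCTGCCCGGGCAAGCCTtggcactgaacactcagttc
Trp73, chr4:154097200-154097259, minus strand: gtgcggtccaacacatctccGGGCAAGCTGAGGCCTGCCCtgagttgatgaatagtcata
Ckap2, chr8:22185983-22186042, minus strand: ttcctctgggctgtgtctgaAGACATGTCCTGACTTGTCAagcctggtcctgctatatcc
The sites of Cdkn1a and Ccng1 had 1 mismatch to the consensus each, and those of Trp73 and Ckap2 had 2. The Cdkn1a window is that of the farther upstream of its annotated starts, and the site begins at position -51 from it. A single decamer without a 20-base site was found in further members, of which Mdm2, the feedback inhibitor, and Gadd45a, the member with the highest log2 fold change, are shown with the decamer in capitals.
Mdm2, chr10:117710915-117710964, minus strand: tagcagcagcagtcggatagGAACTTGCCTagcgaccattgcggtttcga
Gadd45a, chr6:67037418-67037467, minus strand: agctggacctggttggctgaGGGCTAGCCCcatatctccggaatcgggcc
Among the measured members, the 8 with an exact decamer match had a median log2 fold change of 0.12, and the 14 whose windows held no exact match had 0.07. Trp73 was counted among these 14, since its 20-base site, with 2 mismatches, holds no exact decamer. The 7 measured members without a window in the table had a median of -0.00. A match is a sequence description, and no match says only that these letters are not in the window.

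No measured p53 target gene passed the adjusted threshold in tamoxifen exposed p53 null MECs, and a few lay apart from the control pools. Of 29 measured members, 0 rose and 0 fell at an adjusted p under 0.05 by limma, a linear model that steadies each probeset's variance with that of all others, and likewise 0 and 0 by an equal-variance test without that moderation, by which 0.076% of all probesets passed. Of all 22369 probesets, 0.389% passed that threshold by limma, 0.282% higher and 0.107% lower. With an unadjusted p below 0.05 by limma, 6 members were higher (Gadd45a, Eda2r, Fas, Sesn2, Ddit4 and Cdkn1a) and 1 was lower (Ckap2), together 24.1% of the members, against 12.4% of all probesets. By limma the share of all probesets that were higher at this threshold was 6.55%, and 5.87% were lower. The unmoderated test gave 4 members with higher values (6.07% of all probesets) and 0 with lower values (5.39%). The members it did not keep were Sesn2, Ddit4 and Ckap2. The intensities of the pools did not overlap between the groups in 7 members that were higher and 1 that was lower, against 9.79% and 11.2% of all probesets. The median log2 fold change of the members was 0.06, against -0.02 over all genes, and 17 of the 29 values were above 0, as were 44.8% of those of all probesets. In 21 of the 29 members the log2 fold change was under 0.2 in size. That share was not taken over all probesets, so this count describes the members and does not set them apart from other genes. With 3 pools in each group, the smallest two-sided p that exact permutation of the pools allows for 1 gene is 0.1. Nothing in the labels says that the pools were independent beyond their separate mice, so the p-values measure the spread between these pools.

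**Figure D1:**
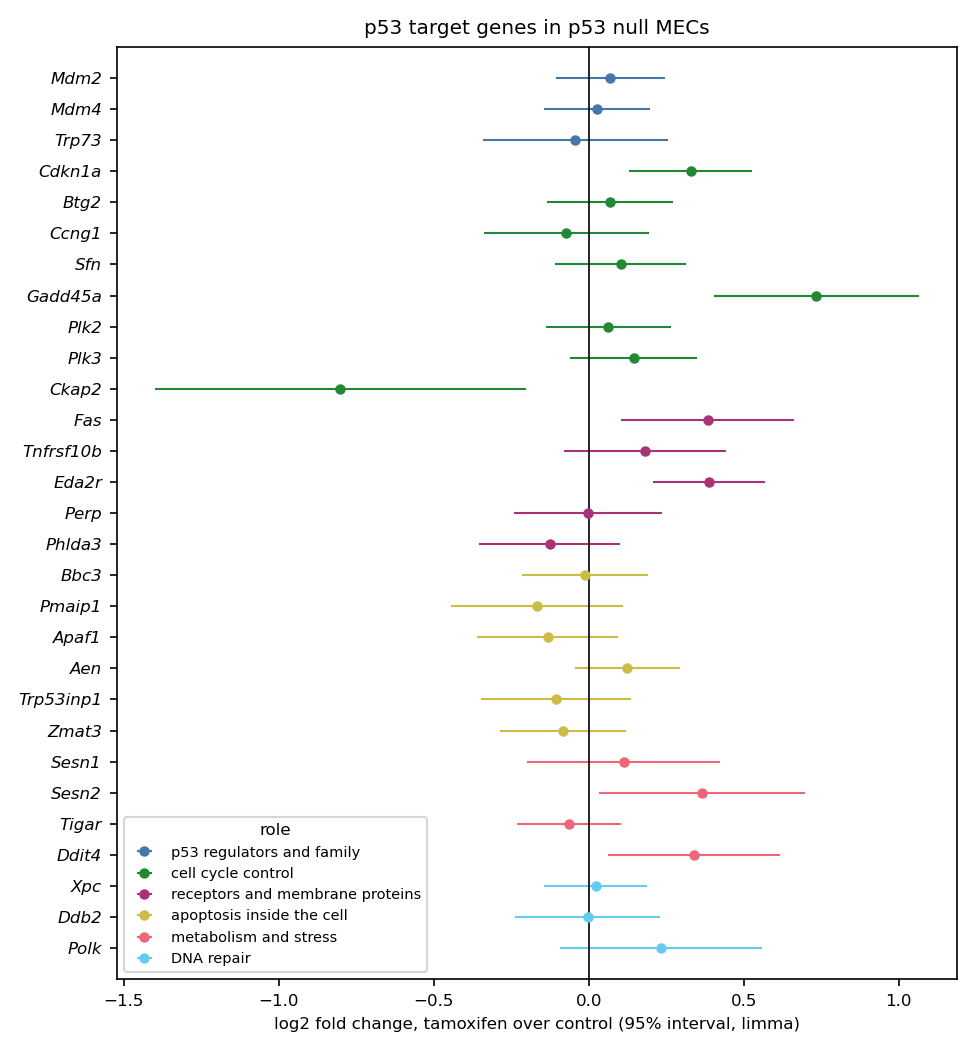
The log2 fold change of each of the 29 measured members, tamoxifen over control pools, with its 95% interval from limma (n = 3 pools each) on the horizontal axis, coloured by role. Gadd45a lies farthest to the right at 0.73 and Ckap2 farthest to the left at -0.80, and most intervals cross 0.

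The regulators of p53 and its relative lay close to control. Mdm2, the ubiquitin ligase that marks p53 for destruction, had intensities of 1045, 1031 and 967 in tamoxifen pools 1, 2 and 3 and 930, 1022 and 948 in control pools 1, 2 and 3 (log2 fold change 0.07, SE 0.07, adjusted p = 0.775 by limma). The ranges overlapped, and the 95% interval of the log2 difference was -0.11 to 0.25. Mdm4, which blocks the activation domain of p53, averaged 417 ± 22.5 in tamoxifen pools and 409 ± 8.53 in control pools (SD, n = 3 each). Trp73 encodes p73, a p53 family member that can bind p53 sites and that carries the 20-base site in the window printed above. It averaged 70.6 ± 11.4 in tamoxifen pools and 72.1 ± 2.51 in control pools (SD, n = 3 each), a log2 fold change of -0.04. Intensities are linear array values. A probeset's intensity depends on its probes as well as on the transcript, so the levels of different members are not set against each other here. None of the members was below the 25th percentile of mean log2 intensity, and 3 (Trp73, Ckap2 and Bbc3) were below the median. The table used here holds no detection call, so these ranks do not say which transcripts were above background.

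Of the genes that act on the cell cycle, Gadd45a and Cdkn1a were higher in every tamoxifen pool than in any control pool. Gadd45a encodes a stress protein that binds Cdk1, PCNA and MAP kinase kinase kinases. Its intensity was 1171, 1147 and 1220 in tamoxifen pools 1, 2 and 3, against 574, 776 and 800 in control pools 1, 2 and 3. The tamoxifen pools lay close together, and control 1 was the lowest of all pools. The means were 1179 ± 37.4 in tamoxifen pools and 717 ± 124 in control pools (SD, n = 3 each), a fold change of 1.66 (log2 fold change 0.73, SE 0.14, unadjusted p = 0.00145, adjusted p = 0.117 by limma). Without control 1 the log2 fold change was 0.58.
Cdkn1a encodes p21, the inhibitor of cyclin-dependent kinases that carries out the p53 dependent arrest. Its intensity was 5000, 4650 and 4707 in tamoxifen pools 1, 2 and 3, against 3488, 3963 and 3998 in control pools 1, 2 and 3, and the lowest was again control 1. The means were 4785 ± 188 in tamoxifen pools and 3816 ± 285 in control pools (SD, n = 3 each), a fold change of 1.26 (log2 fold change 0.33, SE 0.08, unadjusted p = 0.0064, adjusted p = 0.212 by limma), with a 95% interval of 0.13 to 0.53 on the log2 scale.
Btg2, an antiproliferative gene, averaged 5704 ± 187 in tamoxifen pools and 5451 ± 464 in control pools, and Ccng1, cyclin G1, averaged 2093 ± 297 and 2188 ± 48.3 (SD, n = 3 each). Sfn, which encodes the epithelial protein 14-3-3 sigma, averaged 2635 ± 182 in tamoxifen pools and 2454 ± 168 in control pools, with a log2 fold change of 0.10. The polo-like kinase gene Plk2 averaged 2896 ± 119 and 2777 ± 213, with 0.06. Plk3, a related kinase, had 0.14, with 2020, 1876 and 2235 in tamoxifen pools against 1861, 1872 and 1800 in control pools. The Plk3 groups did not overlap, but tamoxifen 2 and control 2 lay almost together, and the log2 fold change was 0.08 without tamoxifen 3 and 0.20 without tamoxifen 2 (unadjusted p = 0.0421). That of Sfn was 0.05 without tamoxifen 3.

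Ckap2 encodes a spindle protein of dividing cells, and it had the lowest log2 fold change of the members. Its intensity was 85.1, 94.95 and 83.4 in tamoxifen pools 1, 2 and 3, against 231, 125 and 123 in control pools 1, 2 and 3. All tamoxifen pools were below all control pools, and control 1 stood far above the other control pools. The means were 87.8 ± 6.23 in tamoxifen pools and 160 ± 61.4 in control pools (SD, n = 3 each), a log2 fold change of -0.80 (SE 0.25, unadjusted p = 0.0164, adjusted p = 0.292 by limma), and -0.50 without control 1. Genes of the cell cycle, with which Ckap2 is expressed, were read in the same pools. Of 28 measured genes of a cell cycle list, 0 were higher and 16 lower by an unadjusted p below 0.05, against 5.87% of all probesets that were lower. None passed an adjusted p of 0.05 (0 of 28), and the replication genes Mcm4 (0.02), Tyms (-0.02) and Cdc6 (0.14) and the cyclin gene Ccne1 (-0.00) had log2 fold changes near or above 0. The median log2 fold change was -0.57 (-0.37 without control 1). The mean of this list, relative to each gene's mean over the 6 pools, was -0.23, -0.16 and -0.49 in tamoxifen pools and 0.80, 0.13 and -0.05 in control pools. In Ccnb2, a mitotic cyclin, the log2 fold change was -1.18 (adjusted p = 0.25), and Nusap1, a spindle protein gene, -1.01 (adjusted p = 0.246). Ube2c, a mitotic ubiquitin-conjugating enzyme, had -0.49 (adjusted p = 0.246). The Ckap2 window held, beside the p53 site, the letters TTTGAA, the cell cycle genes homology region (CHR), shown in capitals.
Ckap2, chr8:22185895-22185940, minus strand: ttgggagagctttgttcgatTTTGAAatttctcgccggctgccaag
These letters, or TTCAAA on the other strand, were present in 13 of 24 windows of the cell cycle list (54.2%) and in 17.9% of all windows, and they did not overlap the p53 site of Ckap2. They were present in 5 of the 34 windows of p53 target genes (14.7%).

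**Figure D2:**
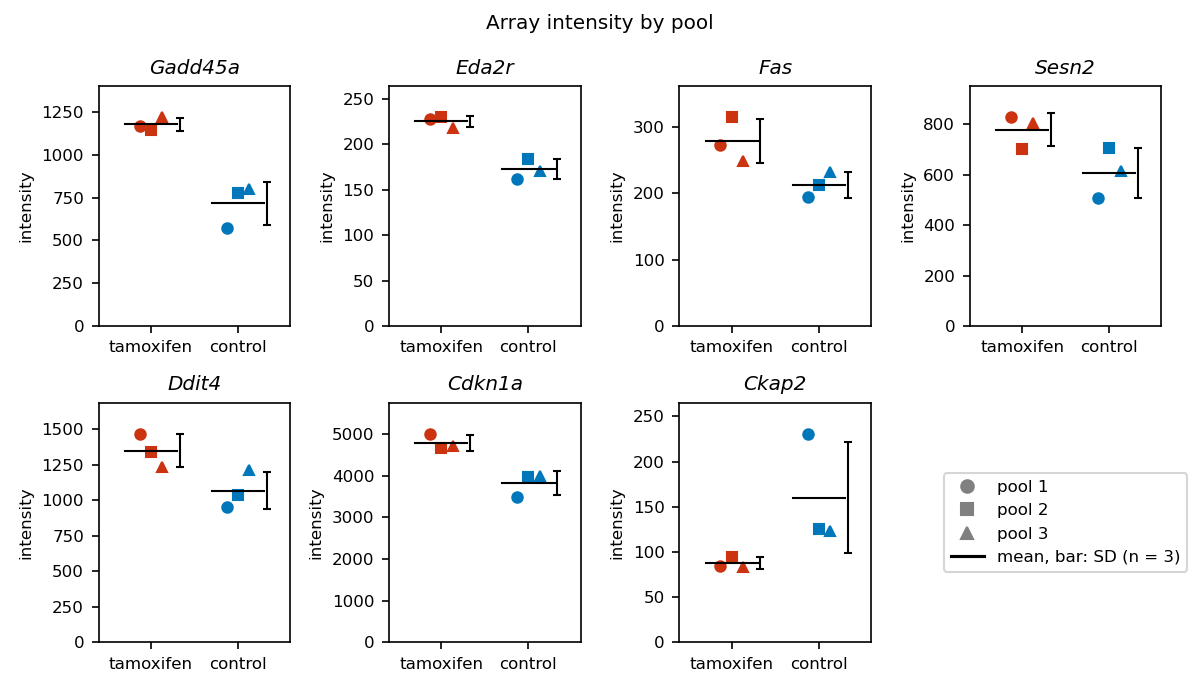
Linear array intensity of the 7 members with an unadjusted p under 0.05 by limma, in 3 tamoxifen pools (left, red) and 3 control pools (right, blue). Lines are means and bars SD (n = 3). Sesn2 is the only panel of the 7 in which the groups overlap, and control 1 is the lowest pool in every panel but Ckap2, where it is the highest at 231.

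Of the receptors and membrane proteins, Eda2r and Fas were higher, and in the other members the groups overlapped. Eda2r encodes a receptor of the TNF receptor superfamily that binds ectodysplasin A2. Its intensity was 228, 230 and 218 in tamoxifen pools 1, 2 and 3, against 162, 184 and 171 in control pools 1, 2 and 3. The groups did not overlap. The means were 225 ± 6.17 in tamoxifen pools and 173 ± 10.9 in control pools (SD, n = 3 each), a fold change of 1.31 (log2 fold change 0.39, SE 0.08, unadjusted p = 0.00178, adjusted p = 0.125 by limma).
Fas, the death receptor for Fas ligand, had 273, 315 and 249 in tamoxifen pools and 194, 213 and 233 in control pools, with means of 279 ± 33.5 and 213 ± 19.5 (SD, n = 3 each) and a log2 fold change of 0.38 (SE 0.12, unadjusted p = 0.0149, adjusted p = 0.283). The highest pool was tamoxifen 2 and the gap between tamoxifen 3 and control 3 was small. Fas is also a gene of activated lymphocytes, and tamoxifen 2 was the pool richest in lymphocyte transcripts. The summed intensity of 7 measured lymphocyte markers was 2691, 6884 and 2091 in tamoxifen pools 1, 2 and 3 and 2615, 3103 and 3501 in control pools 1, 2 and 3. Without tamoxifen 2, the log2 fold change of Fas was 0.29 (unadjusted p = 0.0357). With control 1 and tamoxifen 2 both left out it was 0.23 (unadjusted p = 0.0647). The part of lymphocytes in the Fas values was not tested.
Tnfrsf10b, the mouse receptor for the death ligand TRAIL, averaged 1481 ± 109 in tamoxifen pools and 1310 ± 150 in control pools (SD, n = 3 each), a log2 fold change of 0.18 that was 0.09 without control 1. Perp, a desmosome protein that p53 and its relative p63 induce, averaged 2457 ± 188 in tamoxifen pools and 2466 ± 232 in control pools. Phlda3, an inhibitor of Akt, averaged 605 ± 22.7 and 663 ± 69.4 (SD, n = 3 each). The ligand gene of TRAIL, Tnfsf10, had 726, 783 and 719 in tamoxifen pools against 1093, 1101 and 822 in control pools (log2 fold change -0.42, adjusted p = 0.285), and its groups did not overlap.

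Genes that act inside the cell in apoptosis had log2 fold changes below 0 in the tamoxifen pools, apart from Aen. Above 0 were 1 of the 6 measured members and 44.8% of all probesets, so most probesets were not above 0 either. An unadjusted p under 0.05 by limma was reached by 0 of 6 measured members, against 12.4% of all probesets. With 6 genes, a count of 0 cannot be told from that share. Bbc3 encodes Puma, a BH3-only protein that promotes the activation of Bax, and averaged 128 ± 11.1 in tamoxifen pools and 129 ± 1.84 in control pools (SD, n = 3 each), a log2 fold change of -0.01 with a 95% interval of -0.22 to 0.19. Pmaip1, which encodes the BH3-only protein Noxa, had intensities of 146, 181 and 137 in tamoxifen pools and 178, 170 and 170 in control pools. Tamoxifen 2 was again the highest of all pools, and without it the log2 fold change was -0.29 in place of -0.17 (unadjusted p = 0.00872). Their means were 154 ± 23.4 in tamoxifen pools and 172 ± 4.59 in control pools. Apaf1, the scaffold of the apoptosome, averaged 242 ± 20.8 in tamoxifen pools and 265 ± 16.8 in control pools, a log2 fold change of -0.13 that was -0.06 without tamoxifen 3. Trp53inp1, a stress protein that acts with p53 and in autophagy, averaged 2864 ± 97.9 and 3091 ± 348, a log2 fold change of -0.10 that was -0.20 without control 1 (unadjusted p = 0.0308). Zmat3, an RNA-binding zinc finger gene, averaged 131 ± 9.19 and 138 ± 7.55, with -0.08, or -0.02 without tamoxifen 3. Aen, an exonuclease of apoptotic cells, averaged 413 ± 21.3 in tamoxifen pools and 379 ± 6.36 in control pools (log2 fold change 0.12, adjusted p = 0.541 by limma), and its groups did not overlap. The median of the 6 genes was -0.09.

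Among the genes of metabolism and stress, Sesn2 and Ddit4, which both restrain the growth kinase mTORC1, had higher values in the tamoxifen pools. Their unadjusted p was below 0.05 in 12 and 10 of 18 alternative settings. These settings refit the same arrays and are no replicates. Sesn2, sestrin 2, had 829, 703 and 805 in tamoxifen pools 1, 2 and 3 and 507, 705 and 614 in control pools 1, 2 and 3. Tamoxifen 2 and control 2 lay at the same level and the groups overlapped. The means were 779 ± 66.4 in tamoxifen pools and 609 ± 99.0 in control pools (SD, n = 3 each), a fold change of 1.29 (log2 fold change 0.37, SE 0.14, unadjusted p = 0.0356, adjusted p = 0.368 by limma), and the log2 fold change was 0.24 without control 1 (unadjusted p = 0.0828).
Ddit4, also called Redd1, had 1467, 1339 and 1235 in tamoxifen pools and 953, 1037 and 1210 in control pools. The groups did not overlap, with tamoxifen 3 and control 3 adjacent. The means were 1347 ± 116 in tamoxifen pools and 1067 ± 131 in control pools (SD, n = 3 each), a fold change of 1.27 (log2 fold change 0.34, SE 0.11, unadjusted p = 0.0237, adjusted p = 0.327). Without control 1 it was 0.26 on the log2 scale (unadjusted p = 0.0699). Sesn1, sestrin 1, had 382, 500 and 387 in tamoxifen pools and 370, 371 and 426 in control pools. Tamoxifen 2 stood above all others, and the log2 fold change was 0.11 with it and -0.01 without it. Tigar, a fructose bisphosphatase that lowers glycolysis, averaged 162 ± 1.71 in tamoxifen pools and 169 ± 8.98 in control pools (SD, n = 3 each). Sesn3, the sestrin gene that FoxO factors induce, went the other way from Sesn2, with 713, 906 and 727 in tamoxifen pools against 1083, 911 and 940 in control pools (log2 fold change -0.33, adjusted p = 0.366).
Of the DNA repair genes, 0 of 3 had an unadjusted p below 0.05 by limma, against 12.4% of all probesets. With 3 genes, a count of 0 cannot be told from that share. Xpc, the damage sensor of nucleotide excision repair, averaged 202 ± 1.36 in tamoxifen pools and 199 ± 10.3 in control pools, and Ddb2, which recognises ultraviolet lesions, averaged 215 ± 24.5 and 214 ± 6.79 (SD, n = 3 each). Polk, a translesion DNA polymerase gene, had 206, 224 and 233 in tamoxifen pools and 154, 207 and 207 in control pools. The means were 221 ± 14.0 in tamoxifen pools and 189 ± 30.8 in control pools (SD, n = 3 each). Its log2 fold change of 0.23 (SE 0.14, adjusted p = 0.553 by limma) was 0.09 without control 1, the pool that stood lowest.

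**Figure D3:**
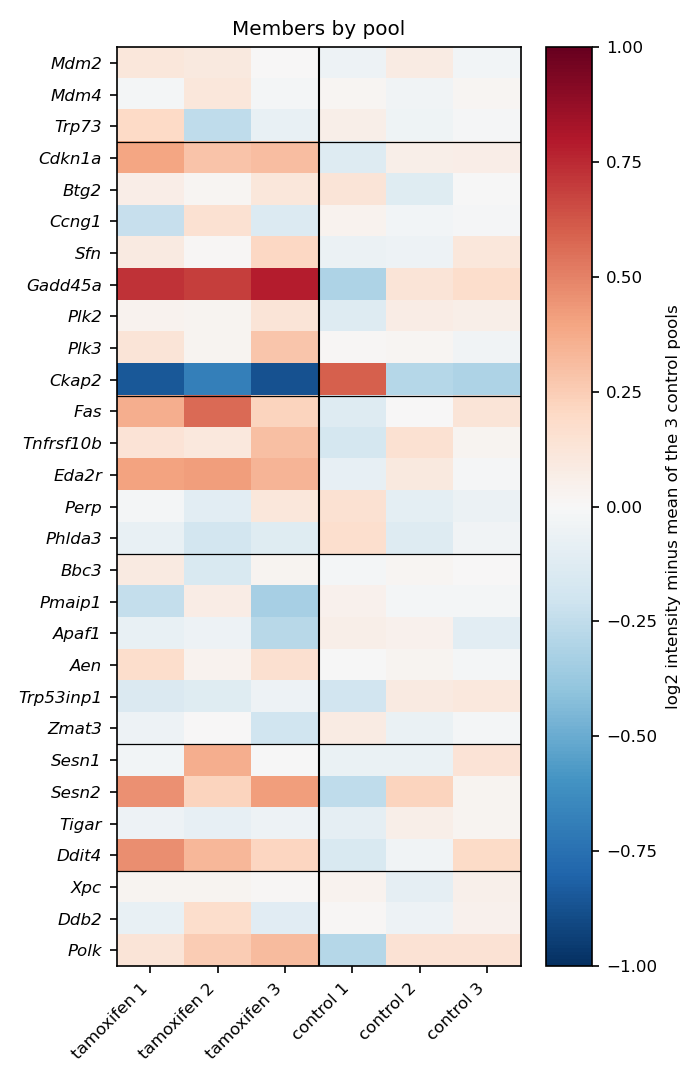
Log2 intensity of the 29 measured members (rows, grouped by role) in each pool (columns, tamoxifen left), minus the mean of the 3 control pools, from -1 (blue) to 1 (red). Gadd45a, Cdkn1a, Eda2r, Fas, Sesn2 and Ddit4 are red in all 3 tamoxifen pools, Ckap2 is blue in all 3, and most other rows are pale.

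The members differed among themselves in which pool stood out. Control 1 was the lowest pool for 14 of the 29 members, against 20.2% of all genes, and those 14 included Gadd45a, Cdkn1a, Eda2r, Fas, Sesn2 and Ddit4. Tamoxifen 2 was the highest pool for 7 members (Mdm4, Ccng1, Fas, Eda2r, Pmaip1, Sesn1 and Ddb2), against 14.9% of all genes. Ccng1 had 1860, 2427 and 1992 in tamoxifen pools and 2242, 2149 and 2173 in control pools, and its log2 fold change of -0.07 became -0.18 without tamoxifen 2 (unadjusted p = 0.0445). Markers of host cells were read in every pool. The endothelial gene Pecam1 had 1881 or more in each of the 6 pools and Cdh5 4987 or more. The epithelial gene Epcam had 6081, 5754 and 6139 in tamoxifen pools and 6457, 6445 and 6586 in control pools. The leukocyte gene Ptprc had 574, 1538 and 462 in tamoxifen pools and 549, 673 and 736 in control pools. In relation to each gene's mean over the 6 pools, 8 endothelial markers averaged 0.16, 0.06 and 0.10 in tamoxifen pools and -0.28, -0.04 and 0.00 in control pools, lowest in control 1 as for the 6 members named above. Their summed intensity was 14945 to 15670 in tamoxifen pools and 11972 to 14079 in control pools. The median log2 fold change of these 8 markers was 0.21, or 0.11 without control 1. In 7 of them the groups lay apart with higher values, against 9.79% of all probesets, while Cldn5 had -0.09. Of 5 measured mast cell markers, all had a positive log2 fold change (median 0.42, summed intensity 1715 to 1895 in tamoxifen pools and 1272 to 1436 in control pools). The median was 0.21 over 6 adipocyte markers (2738 to 3091 and 2773 to 2902), 0.13 over 7 macrophage markers (4938 to 6795 and 5112 to 5575), -0.03 over 8 fibroblast markers (19366 to 21194 and 19884 to 20815), -0.11 over 10 luminal markers (32900 to 34960 and 35934 to 36649) and 0.07 over 8 basal markers (15379 to 16340 and 14625 to 17464). Without tamoxifen 2 the median was -0.01 over the macrophage markers and 0.33 over the adipocyte markers, and without control 1 it was 0.14 over the basal markers. An unadjusted p below 0.05 was reached with higher values by 3 endothelial genes (Tek, Vwf and Tie1), 3 mast cell genes (Fcer1a, Cpa3 and Tpsb2), 2 adipocyte genes (Cidec and Lep) and 1 basal gene (Myh11), and with lower values by 3 luminal genes (Elf5, Esr1 and Cldn3), 1 adipocyte gene (Lpl) and 1 fibroblast gene (Pdgfra), and 0 markers passed the adjusted threshold. Of all probesets, 6.55% were higher and 5.87% lower at the unadjusted threshold by limma. The part of host cells in the members' values was not tested. Fewer cells of a type and less RNA per cell cannot be told apart in pooled RNA.

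**Figure D4:**
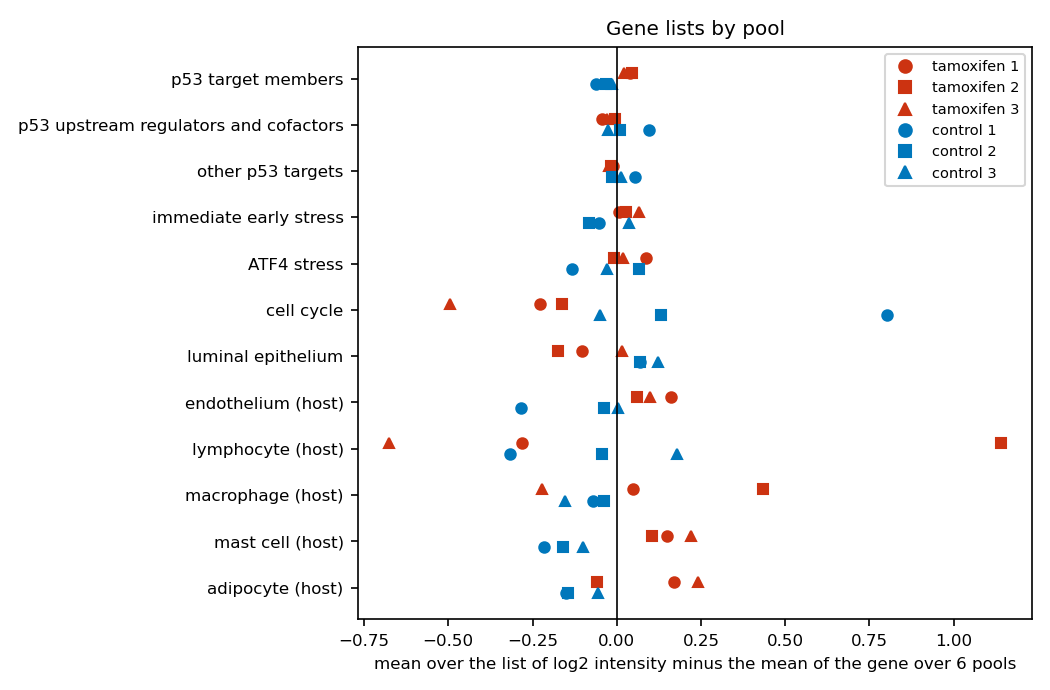
Mean over each gene list of log2 intensity minus each gene's mean over the 6 pools (horizontal axis), for tamoxifen pools (red, upper points) and control pools (blue, lower points). The p53 target members stay within -0.06 to 0.05, the cell cycle list reaches 0.80 in control 1, and the lymphocyte list reaches 1.14 in tamoxifen 2.

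Other genes of the p53 pathway showed no common direction. Of 23 measured upstream regulators and cofactors of p53, 0 rose and 0 fell at an adjusted p under 0.05, and the median log2 fold change was 0.01. By an unadjusted p below 0.05 by limma, 1 was higher and 2 lower (13.0%). That is close to the 12.4% of all probesets at this threshold. Ube4b, a ubiquitin ligase that acts with Mdm2 on p53, had 1028, 974 and 1034 in tamoxifen pools against 1351, 1213 and 1200 in control pools (log2 fold change -0.31, adjusted p = 0.209). Chek1, a checkpoint kinase gene of dividing cells, had 69.9, 73.7 and 65.7 in tamoxifen pools against 124, 101 and 77.04 in control pools (log2 fold change -0.50, adjusted p = 0.332). For Sirt1, a deacetylase of p53, it was 0.24 (adjusted p = 0.312). The damage kinase genes Atm and Atr had 0.00 and 0.01, and Cdkn2a, the locus of the Mdm2 inhibitor Arf, -0.03.
Of 24 further p53 targets outside the list, 0 rose and 0 fell by the adjusted threshold, and the median was -0.01. By an unadjusted p below 0.05, 1 was higher and 3 were lower (16.7%, against 12.4% of all probesets). Lif, the cytokine leukemia inhibitory factor, had 469, 466 and 458 in tamoxifen pools against 327, 372 and 402 in control pools (log2 fold change 0.34, adjusted p = 0.23). Igfbp3, which binds insulin-like growth factors, had 1449, 1414 and 1270 in tamoxifen pools against 1958, 1610 and 1688 in control pools (log2 fold change -0.34, adjusted p = 0.272). Bid, a BH3-only protein gene, had -0.19 (adjusted p = 0.353), and Triap1, an inhibitor of the apoptosome in human cells, had -0.25 (adjusted p = 0.384).
Of 22 measured paralogs and partners of the members, 0 passed the adjusted threshold, and the median was -0.05. By an unadjusted p below 0.05, 1 was higher and 2 were lower (13.6%, against 12.4% of all probesets). The higher one was Gadd45b, a relative of Gadd45a, with 3656, 3603 and 3517 in tamoxifen pools against 2433, 2786 and 3087 in control pools (log2 fold change 0.38, adjusted p = 0.225), and the lower ones were Tnfsf10 and Sesn3. Bcl2, the apoptosis inhibitor, had a log2 fold change of -0.00, and Cdkn1b, the kinase inhibitor p27, 0.10.

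Several members with higher values are also induced by stress pathways that do not need p53, and genes of those pathways were read in the same pools. Of 13 measured targets and partners of ATF4, the factor of the integrated stress response, 0 passed the adjusted threshold and the median was 0.11. By an unadjusted p below 0.05 by limma, 2 were higher and 2 lower (30.8%, against 12.4% of all probesets). Sesn3 was 1 of the lower ones and is also counted among the paralogs and partners above. Ddit3, the stress factor Chop, had 575, 564 and 610 in tamoxifen pools against 456, 473 and 474 in control pools (log2 fold change 0.32, adjusted p = 0.145). Ppp1r15a, which encodes Gadd34, had 2448, 2545 and 2605 against 1772, 2139 and 2104 (log2 fold change 0.34, adjusted p = 0.242). Xbp1, a factor of the unfolded protein response, had -0.19, and Trib3, a pseudokinase that ATF4 induces, had 0.00. Of 16 measured immediate early and heat shock genes, which respond to tissue dissociation, 0 passed the adjusted threshold and the median was 0.06. By an unadjusted p below 0.05, 3 were higher and 0 lower (18.75%, against 12.4% of all probesets). The log2 fold change of Ier3 was 0.38 (adjusted p = 0.182), Junb 0.27 and Nr4a1 0.25 (adjusted p = 0.326 for both), while Atf3 had -0.08. In Ddit3, Ppp1r15a, Ier3 and Junb, as in Gadd45a and Cdkn1a, control 1 was the lowest pool and the groups did not overlap. These 4 stress genes were picked after their values were seen, and most genes of the 2 lists overlapped between the groups. In the ATF4 list, 3 of 13 genes lay apart with higher and 2 with lower values, and in the immediate early list 6 of 16 and 1. Of all probesets, 9.79% lay apart with higher and 11.2% with lower values. The part of these stress pathways in the members' values was not tested.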

How the data were processed

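RNA of 6 pools of MECs was hybridised to 1 Affymetrix mouse array each (the labels name an Exon ST array, the paper a Gene ST array). The authors deposited 1 linear intensity per probeset and array. MAS5 and mm9 appear in the submitters' processing notes without a stated role. Background correction and normalization: not given in the sources used here. Array means were 395 to 403, and the number of arrays limits the precision. Of 22369 probesets, 18286 had 1 gene symbol, 1276 several and 2807 none. A gene was represented by its probeset with the highest mean over the 6 arrays.

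Log2 intensities (no offset, no filter) were fitted with limma 3.58.1 (R 4.3.3) over all probesets with group as the only term (4 residual and 2.35 prior degrees of freedom), and two-sided p-values were Benjamini-Hochberg adjusted across the 22369 probesets. The scripts were tested on simulated data, where 90 of 100 planted log2 changes of 1 and 98 of 100 of 2 were recovered. Every member's change was smaller than these, so the test does not tell how often changes of that size are found. Promoters are from RefSeq (GRCm38.p6). Summaries were made in Python 3.11.15 (pandas 2.3.3, numpy 2.4.6) and plots with matplotlib 3.10.9. All members are named. Those with an unadjusted p under 0.05, or among the 8 largest changes, have every pool's value, and of the pathway, cell cycle and stress lists the 3 smallest p-values are named. Marker lists are given by level, median and the genes with an unadjusted p under 0.05. Genes named beyond that were chosen after their values were seen, as were the motif searches. Members and lists were chosen with earlier results of these data known. The same replicate numbers did not pair the pools (correlations of deviations 0.05, 0.01 and -0.04). Other settings tried were an unmoderated equal-variance test per probeset (the paper's methods give a nominal p and name no test), limma with robust estimation and a variance trend, weights per array, centring on medians, quantile normalization, removal of probesets under the median or the 25th percentile of intensity, 32 added before log2, adjustment over genes with 1 probeset each, the mean over probesets of a gene, a block for replicate number, removal of each array in turn, and, chosen after the data were seen, control 1 and tamoxifen 2 left out together.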

Additional observations from a re-analysis of the deposited data

How the results depend on the processing

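Over 18 alternatives, the 6 members that were higher and Ckap2 kept their direction, and 20 of 29 members kept theirs in every one. Several alternatives left each log2 fold change as it was, so no direction could turn in them. They were the unmoderated test, robust estimation with a variance trend, both intensity filters, both settings by gene and the replicate block. At an adjusted p under 0.05 by limma, 1 member was higher with array weights (Gadd45a, 0.66 on the log2 scale, adjusted p = 0.0315) and 1 with a filter at the median (Eda2r, 0.39, adjusted p = 0.0466), and 0 were called in the others. Calls over all probesets moved with these settings, with 356 of 22369 higher under array weights and 129 of the 11185 left by the filter, against 63 of 22369 as reported. The adjusted p ranged from 0.0315 to 0.35 in Gadd45a and from 0.0466 to 0.343 in Eda2r. The share of all probesets at an unadjusted p under 0.05 ran from 9.03% to 20.5% over the settings (12.4% as reported). Lower members at an unadjusted p under 0.05 numbered 0 by the unmoderated test, 3 with array weights (9.2% of all probesets were lower, against 5.87% as reported), 0 with the filter at the median, where Ckap2 was removed, 1 to 3 with 1 array left out, and 3 without control 1 and tamoxifen 2 together. The higher ones numbered 4 to 7 with 1 array left out. The share of all probesets moved too, from 4.82% to 8.66% higher and 4.21% to 5.74% lower with 1 array left out. Without control 1 and tamoxifen 2 together, 5.49% were lower. The median of the members was 0.0296 with array weights, 0.0378 with quantile normalization, 0.0859 with median centring and 0.00841 to 0.0579 with 1 array left out, lowest without control 2. With the replicate number as a block, 0 members were called, and an unadjusted p below 0.05 was reached by 4 with higher and 1 with lower values (11.1% of all probesets), without Sesn2 and Ddit4. The numbers were not shown to pair the pools.

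The direction turned in 9 members near 0, given here on the log2 scale. Perp was 0.121 with array weights, 0.0195 with median centring and 0.124 without control 1 and tamoxifen 2 together. Bbc3 was 0.0125, 0.00997 and 0.0463 under these settings and 0.0184 with quantile normalization. Ddb2 was 0.0108 with quantile normalization and 0.0192 with median centring. Without control 1 and tamoxifen 2 together, Mdm4 was -0.00964, Trp73 0.0899 and Sesn1 -0.0484. With 1 array left out the ranges were -0.0611 to 0.0724 in Perp, -0.0657 to 0.0579 in Bbc3, -0.0955 to 0.0522 in Ddb2, -0.0185 to 0.0493 in Mdm4, -0.166 to 0.0625 in Trp73, -0.0144 to 0.18 in Sesn1, -0.00229 to 0.10 in Plk2, -0.0217 to 0.0483 in Xpc and -0.185 to 0.00726 in Ccng1. The cause was not tested.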
